A study of Mus musculus with 6 samples.

Results

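The clock output genes examined here are *Dbp*, *Tef*, *Hlf*, *Per1*, *Per2*, *Per3*, *Nr1d1*, *Nr1d2*, *Ciart* and *Bhlhe41*, 10 of the 47729 genes in the files, of which 29903 had a count in at least 1 mouse. They are named as the genes that share the phase of *Dbp*, and they were chosen by their HFD-against-LFD values in these same mice. Their differences between the diets are therefore given as a description, and any count of them among called genes is no independent evidence. RNA was sequenced from the right interscapular brown adipose tissue (BAT) of 6 single-housed male wild type C57BL/6J mice. 3 mice were fed a 45% high-fat diet (HFD) and 3 a standard rodent diet (LFD) for 4 weeks, from 6 to 10 weeks of age, and the mice sequenced were picked to span the fat mass of their diet group. The labels name no other treatment. The labels do not say which replicate number had which fat mass, and the clock time at which the tissue was collected is not given in the sources used here.

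The circadian clock is a transcriptional feedback loop that runs in nearly every cell. CLOCK and BMAL1 (the product of *Arntl*) bind E-boxes and switch on the genes of their own repressors, the Period and Cryptochrome proteins, together with the REV-ERB receptors and the PAR bZIP factors, so that *Dbp* and *Arntl* peak at nearly opposite times of day. The PAR bZIP factors act at D-boxes and pass the rhythm on to metabolic genes, and the REV-ERB receptors silence *Arntl* and, in brown fat, are known for restraining thermogenic genes.

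The RefSeq promoter windows of GRCm38.p6, each running from 250 bases before to 50 bases after the start site of a gene, held 9 of the 10 genes, and *Per2* had no window there. The stretches that carry an E-box (CACGTG, which reads the same on both strands) are printed because this is the letter string through which CLOCK and BMAL1 are known to act. All stretches are written 5′ to 3′ on the strand of the gene, with the motif in capitals.
Ciart, minus strand, chr3:95882227-95882384: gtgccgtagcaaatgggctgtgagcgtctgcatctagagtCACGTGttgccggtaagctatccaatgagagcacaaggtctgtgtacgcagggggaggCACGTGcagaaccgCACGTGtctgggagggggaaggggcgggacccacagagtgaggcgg
Per1, plus strand, chr11:69098743-69098828: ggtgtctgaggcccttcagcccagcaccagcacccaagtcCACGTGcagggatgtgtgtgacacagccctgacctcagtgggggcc
Tef, plus strand, upstream start site, chr15:81802506-81802591: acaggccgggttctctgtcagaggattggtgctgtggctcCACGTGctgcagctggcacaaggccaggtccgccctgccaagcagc
Tef, plus strand, downstream start site, chr15:81811236-81811321: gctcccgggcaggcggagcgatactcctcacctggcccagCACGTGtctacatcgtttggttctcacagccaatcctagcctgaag
Bhlhe41, minus strand, chr6:145865528-145865613: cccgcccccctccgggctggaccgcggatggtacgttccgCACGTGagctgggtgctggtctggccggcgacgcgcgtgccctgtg

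An E-box was present in the windows of 4 of the 9 genes, against 8.09% of the 27025 genes in the table and 7.15% of its 32851 windows. *Ciart* held 3 of them, beginning 116, 58 and 44 bases before its start site. The single E-box began 166 bases before the start in 1 of the 2 windows of *Per1*, whose other window held none of the motifs searched, and 153 bases before it in *Bhlhe41*, and in the windows of *Tef* it began 127 and 138 bases before the respective start. The related E-prime box (CACGTT, or AACGTG on the other strand) was found in 1 of the 9, *Nr1d1*, and in 5.44% of all genes. The D-box (TTATGTAA, or TTACATAA on the other strand), the element of the PAR bZIP proteins themselves, was found in 1 of the 9, *Per3*, which held 2 copies, and in 1.11% of all genes. These windows are shown for the positions of the motifs in them.
Nr1d1, minus strand, chr11:98775360-98775445: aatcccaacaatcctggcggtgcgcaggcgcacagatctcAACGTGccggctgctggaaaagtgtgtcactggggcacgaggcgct
Per3, minus strand, chr4:151044776-151044910: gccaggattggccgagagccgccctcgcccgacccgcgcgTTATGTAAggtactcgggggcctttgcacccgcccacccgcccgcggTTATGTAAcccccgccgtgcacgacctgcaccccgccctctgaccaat

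The CRE (TGACGTCA, the same on both strands), the site of cyclic AMP signalling, was found in *Hlf* alone of the 9 and in 2.03% of all genes, and a further D-box form, TTACGTAA, in none of the 9 and in 0.126% of all genes. The core of the element bound by ROR and REV-ERB receptors (TAGGTCA, or TGACCTA on the other strand) was in none of the 9 and in 2.97% of all genes, while it was in the windows of *Arntl* and *Nfil3*, 2 of the 5 clock genes of opposite phase or activator role that had a window. Of these 5 genes, 1, *Cry1*, held an E-box, and it held an E-prime box as well. No match in the windows of the 9 genes overlapped a match of another motif. The windows of *Dbp* and *Nr1d2* held none of these strings, which says only that the letters are not in these 300 bases.

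Levels are given as TPM, the share of transcripts in a library after correction for transcript length, and differences as the log2 fold change of HFD over LFD fitted to the deposited counts by edgeR, with its standard error (SE). *Dbp* (chr7:45705088-45710203, plus strand), the PAR bZIP activator that gives the group its phase, had TPM values of 53.95, 69.82 and 27.17 in LFD replicates 1, 2 and 3, and of 1.66, 5.96 and 2.75 in HFD replicates 1, 2 and 3. The lowest LFD mouse was 4.56 times the highest HFD mouse. The means were 50.3 ± 21.6 TPM in LFD and 3.46 ± 2.24 TPM in HFD (SD, n = 3 each), and the fitted log2 fold change was -3.83 (SE 0.61), an LFD level 14.2 times that of HFD. Between mice with the same replicate number the LFD-to-HFD ratio was 32.5, 11.7 and 9.88.

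*Dbp* was well covered in both diets, with 521 to 1559 counts in LFD and 58 to 153 in HFD, and RSEM, the program the authors used to assign reads, placed an SD of 2.76 to 12.58 counts on its assignments. *Sphk2*, a sphingosine kinase gene on the opposite strand, shares 539 exon bases with *Dbp*, which is 18% of the exon bases of *Dbp*. The counts of *Sphk2* were 586, 605 and 583 in LFD and 446, 511 and 701 in HFD, so the diets overlapped for the neighbour while they lay apart for *Dbp*. Whether the counting used the strand of the reads is not given in the sources used here.

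*Tef* (chr15:81802421-81826863, plus strand), a paralog of *Dbp* that acts at the same D-boxes, had 100.58, 127.03 and 47.84 TPM in LFD and 20.72, 39.4 and 26.43 TPM in HFD. The diets did not overlap in TPM, but on the log2 scale of CPM, counts scaled to library size but not to length, LFD replicate 3 (6.03) fell just under HFD replicate 2 (6.09). The fitted log2 fold change was -1.57 (SE 0.48), an LFD level 2.96 times that of HFD. *Gm17597*, an antisense gene on the opposite strand, shares 193 exon bases with *Tef* (2.45% of its exon bases) and had 0 to 5 counts.

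*Hlf* (chr11:90336536-90390895, minus strand), the remaining PAR bZIP gene, had 3.96, 11.8 and 1.74 TPM in LFD and 4.69, 3.23 and 2.04 TPM in HFD. The diets overlapped fully, with the highest and the lowest mouse both fed LFD, and the log2 fold change of -0.27 was smaller than its SE of 0.79. The sign rested on single mice, since the log2 fold change was 0.06 without LFD replicate 1, 0.01 without LFD replicate 2 and 0.17 without HFD replicate 3, while leaving out HFD replicate 1 kept it negative. Its TPM also depended on the transcripts RSEM chose, as the effective length ran from 2088 to 3914 bases between mice. Within this family, then, *Dbp* and *Tef* lay apart by diet in TPM and *Hlf* did not.

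The ratio of *Dbp* to *Tef* showed that the paralogs were not lower by the same factor. It was 0.536, 0.55 and 0.568 in LFD, nearly the same in the 3 mice although their *Dbp* levels differed, and 0.0801, 0.151 and 0.104 in HFD.

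The Period genes encode repressors that bind the Cryptochromes and close the feedback loop, and all 3 were lower in every HFD mouse than in any LFD mouse. *Per1* (chr11:69095217-69109960, plus strand), which also answers acutely to glucocorticoids and cyclic AMP, had 22.13, 28.87 and 39.18 TPM in LFD and 9.1, 11.76 and 15.33 TPM in HFD. Its log2 fold change was -1.15 (SE 0.19), the smallest SE of the 10 genes, and the LFD-to-HFD ratio was 2.43, 2.45 and 2.56 in the 3 same-numbered pairs. No alternative way of processing the data moved it outside -1.28 to -1.10.

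*Per2* (chr1:91415982-91459324, minus strand) had 8.17, 12.34 and 10.88 TPM in LFD and 3.53, 7.68 and 7.4 TPM in HFD. The gap between the groups was narrow, with the lowest LFD and the highest HFD mouse at 8.17 and 7.68, and the log2 fold change was -0.75 (SE 0.21). *Per3* (chr4:151003652-151044665, minus strand), which is dispensable for the loop itself and follows it as an output, had 10.35, 28.22 and 10.71 TPM in LFD and 2.02, 6.58 and 3.31 TPM in HFD. Its log2 fold change was -1.81 (SE 0.44), an LFD level 3.50 times that of HFD, the largest difference among the Period genes. *Per3* and *Per1* did not keep a fixed ratio within a diet, at 0.468, 0.977 and 0.273 in LFD and 0.222, 0.56 and 0.216 in HFD.

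*Nr1d1* (chr11:98767932-98775333, minus strand) encodes REV-ERB alpha, a haem receptor that represses *Arntl*. Its TPM was 38.57, 41.04 and 25.07 in LFD and 8.84, 12.77 and 8.59 in HFD, with every LFD mouse above every HFD mouse, and the log2 fold change was -1.70 (SE 0.47). *Thra*, a thyroid hormone receptor gene on the opposite strand, shares 263 exon bases with *Nr1d1*, 8.55% of its exon bases. The counts of *Thra* were 1181, 1199 and 955 in LFD and 1011, 983 and 723 in HFD, against 1757, 1422 and 718 and 492, 504 and 333 for *Nr1d1*. In TPM *Thra* had 45.41, 51.81 and 54.31 in LFD and 30.44, 41.61 and 28.39 in HFD. On that scale every HFD mouse lay below every LFD mouse for *Thra* too. The part of the shared bases in the values of *Nr1d1* was not tested.

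*Nr1d2* (chr14:18204054-18239127, minus strand) encodes the sister receptor REV-ERB beta. It had 25.03, 52.6 and 35.44 TPM in LFD and 9.71, 20.88 and 15.3 TPM in HFD, without overlap, and a log2 fold change of -1.12 (SE 0.28). The ratio of *Nr1d1* to *Nr1d2* was 1.54, 0.78 and 0.707 in LFD and 0.91, 0.612 and 0.561 in HFD, so these ratios overlapped between the diets while both receptors were lower in HFD.

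*Ciart* (chr3:95878503-95882251, minus strand), whose product represses CLOCK-BMAL1, was the most weakly expressed of the group in HFD. It had 10.12, 5.56 and 2.24 TPM in LFD and 0.93, 1.85 and 1.14 TPM in HFD, from 40 to 148 counts and from 19 to 35 counts. The diets did not overlap, but the log2 fold change of -1.87 (SE 0.64) leaned on 1 mouse and was -0.96 without LFD replicate 1.

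*Bhlhe41* (chr6:145858243-145865558, minus strand), the E-box repressor also called DEC2, had 7.98, 10.55 and 5.1 TPM in LFD and 1.89, 3.59 and 4.59 TPM in HFD. The closest mice of the diets, LFD replicate 3 and HFD replicate 3, differed by little, and the log2 fold change was -1.03 (SE 0.36). *Gm43909*, an annotated transcript on the opposite strand, shares 1280 exon bases with it (19% of its exon bases) and had 2 to 12 counts. The effective length of *Bhlhe41* ran from 2593 to 4049 bases and that of *Ciart* from 824 to 1498 bases between mice, so their TPM carries the choice of transcript as well.

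**Figure D1:**
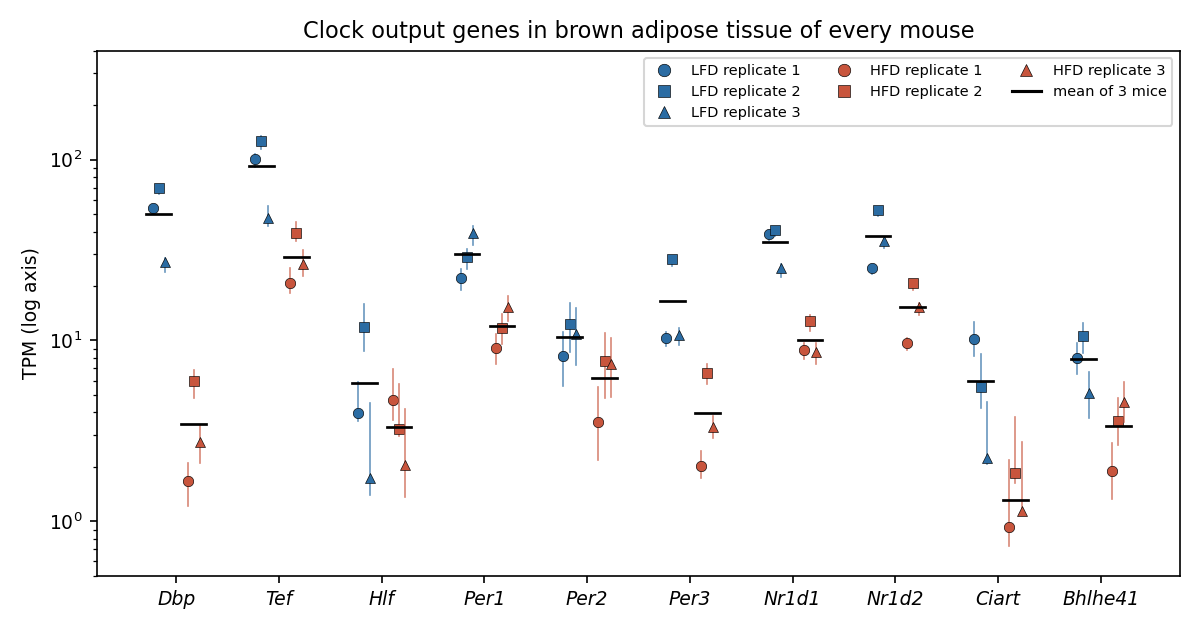
TPM of the 10 clock output genes on a log axis in each mouse, LFD in blue and HFD in red, with the symbol giving the replicate number, thin bars the credibility interval that RSEM gives for that library, and black lines the mean of 3 mice. For *Dbp* the LFD mice sit between 27.17 and 69.82 and the HFD mice between 1.66 and 5.96, and *Hlf* is the only gene of the 10 whose diets overlap in TPM.

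The log2 fold change was negative for 10 of the 10 genes, with a median of -1.36 against -0.05 over the 17670 genes tested. In 9 of the 10 the LFD mouse had the higher TPM in all 3 same-numbered pairs, and *Hlf* did so in 1 pair. In 8 of the 10 every HFD mouse lay below every LFD mouse in log2 CPM, a pattern that held for 9.22% of all tested genes, with the opposite order in 6.72%. The share over all genes was not computed for the pair count or for non-overlap in TPM. As the group was selected on this contrast, nothing is read from these counts and shares.

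At the thresholds of the study (adjusted p under 0.01, with a log2 fold change beyond 1.5 in either direction), edgeR called none of the 10 genes and 0% of the 17670 genes tested. At an unadjusted p under 0.05, edgeR had 1170 genes lower in HFD (6.62%) and 682 higher (3.86%). DESeq2, on the same counts and thresholds, called 307 of 19996 genes lower in HFD (1.54%) and 106 higher (0.530%), and 2 of the 10 clock output genes, *Dbp* and *Per3*, were among the lower ones. With the replicate number as a block and an adjusted p under 0.05 alone, edgeR called 155 genes lower (0.877%) and 30 higher (0.170%), and 1 of the 10 genes, *Dbp*. These calls on the 10 genes rest on the same values that selected them, and nothing is read from them. The size of the difference in *Dbp* ranked 180th from the lowest of all tested genes.

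The order of the levels within the group changed with the diet, mainly through *Dbp*. By mean TPM the order in LFD was *Tef*, *Dbp*, *Nr1d2*, *Nr1d1*, *Per1*, *Per3*, *Per2*, *Bhlhe41*, *Ciart* and *Hlf*, and in HFD it was *Tef*, *Nr1d2*, *Per1*, *Nr1d1*, *Per2*, *Per3*, *Dbp*, *Bhlhe41*, *Hlf* and *Ciart*. *Dbp* stood at rank 2 in LFD and at rank 7 in HFD. In LFD all neighbours in this order had overlapping values, among them *Nr1d2* (37.7 ± 13.9), *Nr1d1* (34.9 ± 8.6) and *Per1* (30.1 ± 8.59 TPM, SD, n = 3 each). In HFD the neighbours overlapped except *Nr1d1* (10.1 ± 2.34) above *Per2* (6.2 ± 2.32) and *Hlf* (3.32 ± 1.33) above *Ciart* (1.31 ± 0.482 TPM, SD, n = 3 each). The summed TPM of the 10 genes was 281, 388 and 205 in LFD and 63.1, 114 and 86.9 in HFD.

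The activators of the loop and the genes of opposite phase, 5 of which are reported here, had a median log2 fold change of 0.86. None of the 5 passed the test in either direction by edgeR or DESeq2 at the thresholds of the study, and 2 of them, *Arntl* and *Nfil3*, had an unadjusted edgeR p under 0.05. *Arntl*, which encodes the activator BMAL1, had 1.69, 3.35 and 6.57 TPM in LFD and 6.26, 7.53 and 7.62 TPM in HFD. In log2 CPM every HFD mouse was above every LFD mouse, with LFD replicate 3 closest to the HFD mice, while in TPM this mouse lay above HFD replicate 1. The log2 fold change was 1.27 (SE 0.34, adjusted p = 0.262 by edgeR and 0.0343 by DESeq2). *Nfil3*, the D-box repressor that competes with the PAR bZIP factors, had 6.06, 6.55 and 11.19 TPM in LFD and 11.86, 14.05 and 16.72 TPM in HFD, a log2 fold change of 1.10 (SE 0.27, adjusted p = 0.221 by edgeR and 0.0366 by DESeq2).

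The other 3 of these genes had smaller log2 fold changes. *Cry1*, a Cryptochrome repressor of late phase, was higher in every HFD mouse than in every LFD mouse in log2 CPM (2.99 to 3.26 against 2.68 to 2.79) but overlapped in TPM. Its log2 fold change was 0.35 (SE 0.24, edgeR adjusted p = 0.719), and that of *Clock*, the partner of BMAL1, was 0.17 (SE 0.27, edgeR adjusted p = 0.907). *Npas2*, a substitute for CLOCK, was at 0.12, 0.43 and 1.53 TPM in LFD and 0.99, 1.31 and 1.11 TPM in HFD. The diets overlapped for *Npas2*, with LFD replicate 3 apart from the other LFD mice, and the edgeR adjusted p was 0.758.

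Ratios within a library set the output genes against these partners without a scaling between libraries. *Dbp* to *Arntl* was 31.9, 20.8 and 4.14 in LFD and 0.265, 0.792 and 0.361 in HFD, so that *Dbp* exceeded *Arntl* in every LFD mouse and was below it in every HFD mouse. *Dbp* to *Nfil3*, the D-box activator over the D-box repressor, was 8.9, 10.7 and 2.43 in LFD and 0.14, 0.424 and 0.164 in HFD. *Nr1d1* to *Arntl* was 22.8, 12.3 and 3.82 in LFD and 1.41, 1.7 and 1.13 in HFD, and *Per3* to *Arntl* was 6.12, 8.42 and 1.63 against 0.323, 0.874 and 0.434. In all 4 ratios LFD replicate 3 was the LFD mouse closest to HFD.

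**Figure D2:**
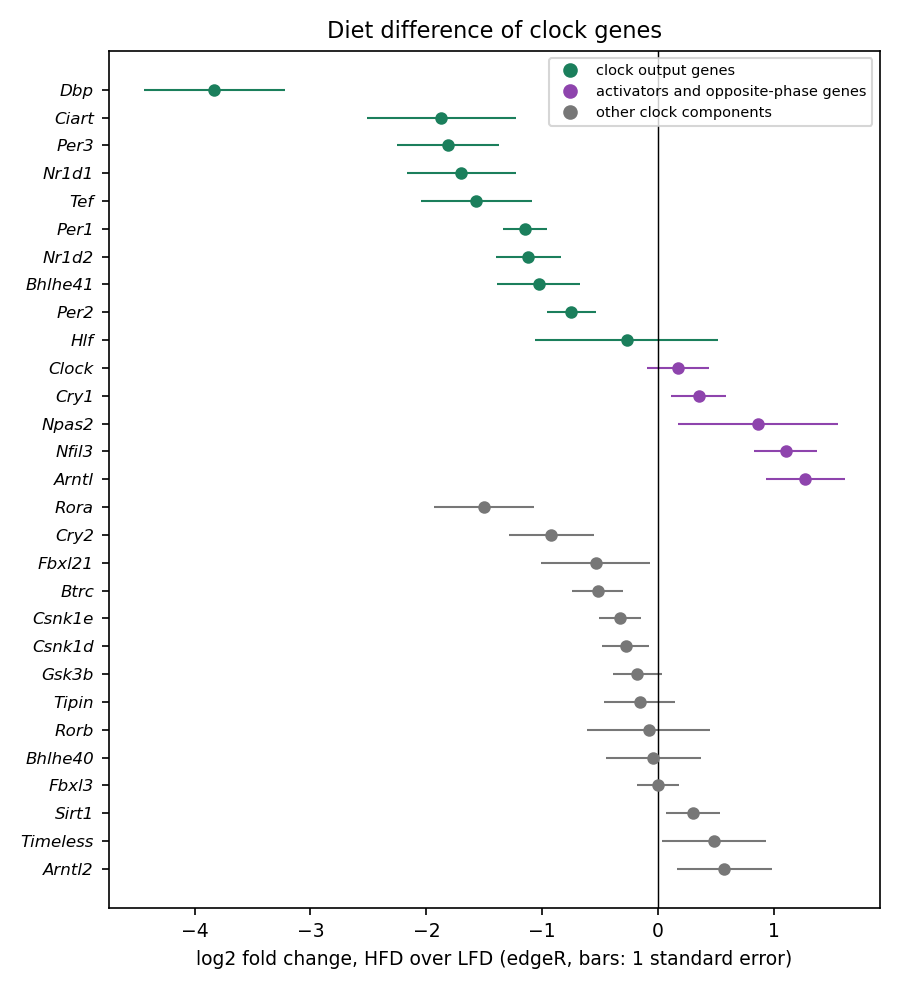
Log2 fold change of HFD over LFD fitted by edgeR for the 10 clock output genes in green, the 5 activators and opposite-phase genes in purple and the 14 other clock components in grey, with bars of 1 SE (n = 3 mice per diet). *Dbp* lies farthest to the left at -3.83 and *Arntl* farthest to the right at 1.27, with *Hlf* crossing 0 within 1 SE.

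Among the 14 other clock components, which include the kinases and ubiquitin ligases that set the stability of the Period and Cryptochrome proteins, the median log2 fold change was -0.17. None passed the thresholds by edgeR or DESeq2, and 2 had an unadjusted edgeR p under 0.05, both lower in HFD. *Rora*, an activator of *Arntl*, had the largest log2 fold change at -1.50 (SE 0.43, edgeR adjusted p = 0.296), with 16.41, 25.98 and 12.27 TPM in LFD and 5.18, 8.11 and 5.31 TPM in HFD. *Cry2*, the Cryptochrome paralog of earlier phase, was at -0.92 (SE 0.37, edgeR adjusted p = 0.460), *Arntl2*, the paralog of *Arntl*, at 0.57 (SE 0.41, edgeR adjusted p = 0.723), and *Bhlhe40*, the paralog of *Bhlhe41*, at -0.04 (SE 0.41, edgeR adjusted p = 0.988). *Bhlhe40* had 41.28, 44.6 and 34.3 TPM in LFD and 26.78, 51.48 and 25.66 TPM in HFD, and whether the DEC paralogs differed in their response was not tested.

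Of 12 genes that cycle in many tissues, none passed by edgeR and 1 passed by DESeq2, with a median log2 fold change of 0.11. The 1 gene was *Lonrf3*, a RING finger gene that was higher in HFD, at 0.22, 1.23 and 2.31 TPM in LFD and 2.23, 5.37 and 7.08 TPM in HFD (log2 fold change 2.42, SE 0.57, adjusted p = 0.207 by edgeR, 0.00103 by DESeq2 and 0.0484 with the replicate block). *Usp2*, a deubiquitinase gene that is a standard clock output, had 14.78, 22.84 and 10.12 TPM in LFD and 2.92, 5.23 and 3.57 TPM in HFD, a log2 fold change of -1.78 (SE 0.52, adjusted p = 0.313 by edgeR and 0.0493 by DESeq2). *Tsc22d3*, the glucocorticoid-induced leucine zipper, was at -0.67 (SE 0.37, edgeR adjusted p = 0.613).

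Glucocorticoids set the phase of peripheral clocks and act on *Per1* directly, so 7 genes of the glucocorticoid response were set beside the group. Their median log2 fold change was -0.87, 4 had an unadjusted edgeR p under 0.05 in the lower direction and 1 in the higher, and 2 were called lower in HFD by DESeq2. *Fkbp5*, a chaperone of the glucocorticoid receptor, had 68.81, 73.41 and 71.94 TPM in LFD and 7.67, 13.38 and 21.57 TPM in HFD (log2 fold change -2.25, SE 0.35, adjusted p = 0.170 by edgeR and 1.14e-05 by DESeq2). *Zbtb16*, a zinc finger gene, had 22.83, 28.69 and 14.09 TPM in LFD and 5.03, 5.17 and 4.73 TPM in HFD (log2 fold change -1.95, SE 0.46, adjusted p = 0.211 by edgeR and 0.00934 by DESeq2). *Pdk4*, the pyruvate dehydrogenase kinase, was in the opposite direction at 1.99 (SE 0.72, edgeR adjusted p = 0.409). The part of these genes in the values of the clock output genes was not tested.

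The order of the mice within a diet depended on the scale. TMM factors in log2 CPM were 0.745, 1.070 and 1.200 in LFD replicates 1, 2 and 3. For HFD replicates 1, 2 and 3 they were 0.815, 1.060 and 1.210, and TPM does not use them. In log2 CPM, LFD replicate 3 was the lowest of the LFD mice in 9 of the 10 genes, with *Per1* as the exception, and LFD replicate 1 the highest in 8, whereas in TPM replicate 3 was lowest in 6, replicate 1 lowest in 4 and replicate 2 highest in 8. In HFD, replicate 2 was highest in 5 genes and replicate 3 lowest in 5 in log2 CPM, and in TPM replicate 2 was highest in 7 and replicate 1 lowest in 8. Over the 6 mice, Pearson's r of log2 CPM with *Dbp* was 0.98 for *Nr1d2*, 0.95 for *Per2* and for *Per3*, 0.93 for *Tef*, 0.92 for *Nr1d1*, 0.89 for *Per1*, *Ciart* and *Bhlhe41*, and 0.34 for *Hlf*. These are descriptions over 6 points that share libraries and include the gap between diets, and 0.376% of the genes ranked had a higher r than *Nr1d2* and 33% a higher r than *Hlf*. With each diet's mean subtracted, r was positive for 8 of the 9, from 0.62 for *Per2* to 0.96 for *Tef*, and -0.43 for *Per1*. In log2 CPM *Arntl* ran against *Dbp*, at -0.97 over the 6 mice and -0.86 after subtraction of the diet means. In TPM, however, HFD replicate 1 was the lowest HFD mouse for both genes, at 1.66 for *Dbp* and 6.26 for *Arntl*.

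**Figure D3:**
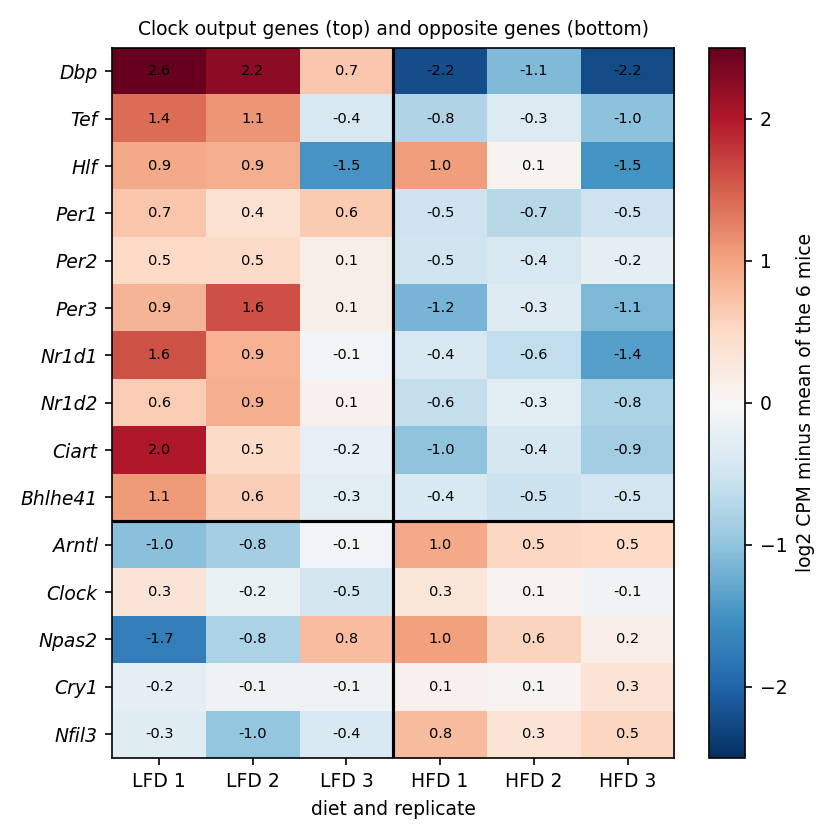
Log2 CPM of each gene minus its mean over the 6 mice, with LFD mice in the 3 left columns and HFD mice in the 3 right ones, the 10 clock output genes above the line and the 5 activators and opposite-phase genes below it. LFD replicate 3 is the lowest LFD column for 9 of the 10 output genes, and *Arntl* and *Nfil3* show the opposite sign between the diets.

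Among the 10625 genes with an average log2 CPM of at least 3, those most like *Dbp* over the 6 mice were *Ift88* (r = 0.998), *Pfn2* (0.993), *Myoz1* (0.991), *Sfxn2* (0.990) and *Dicer1* (0.990). Those most unlike it were *Ctsl* (-0.984), *Gngt2* (-0.982), *Arntl* (-0.972), *Ppp4r2* (-0.970) and *Dusp6* (-0.970). With 6 mice such values are common, as 295 genes reached an r of 0.9 or more and 122 one of -0.9 or less. *Myoz1* encodes a Z-disc protein of fast skeletal muscle.

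Skeletal muscle markers lay apart between the same mice. All 12 markers were lower in every HFD mouse than in every LFD mouse. Their median log2 fold change was -6.21, and 12 of 12 were called by DESeq2 and 0 by edgeR, which had 12 of 12 at an unadjusted p under 0.05. With the replicate block and an adjusted p under 0.05 alone, edgeR called 10 of the 12 lower. Their summed TPM was 5786, 13587 and 1944 in LFD and 87.1, 231 and 23.6 in HFD, and none was at 0 in any mouse. *Acta1*, skeletal muscle actin, had 872.39, 2335.67 and 485.87 TPM in LFD and 8.3, 37.89 and 0.68 TPM in HFD, and *Tnnt3*, fast troponin T, had 964.55, 2051.83 and 279.02 TPM in LFD and 6.63, 35.17 and 0.31 TPM in HFD. Within each diet the mouse with the highest muscle sum, replicate 2, also had the highest TPM of *Dbp*, but in log2 CPM the LFD mouse highest in *Dbp* was replicate 1 (6.62 against 6.22 in replicate 2). The part of skeletal muscle RNA in the clock output genes was not tested, and in bulk tissue fewer cells of a type and less RNA per cell cannot be told apart.

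With LFD replicate 3, the LFD mouse of the lowest muscle sum, as the only LFD mouse, an alternative added after seeing the data, *Dbp* had a log2 fold change of -2.45, *Per1* stayed within the range given above, and *Tef* was at -0.27, *Bhlhe41* at -0.17 and the median of the 10 genes at -0.60. *Hlf* was at 1.71 there. With LFD replicate 1 as the only LFD mouse *Ciart* was at -2.85 and *Bhlhe41* at -1.54.

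**Figure D4:**
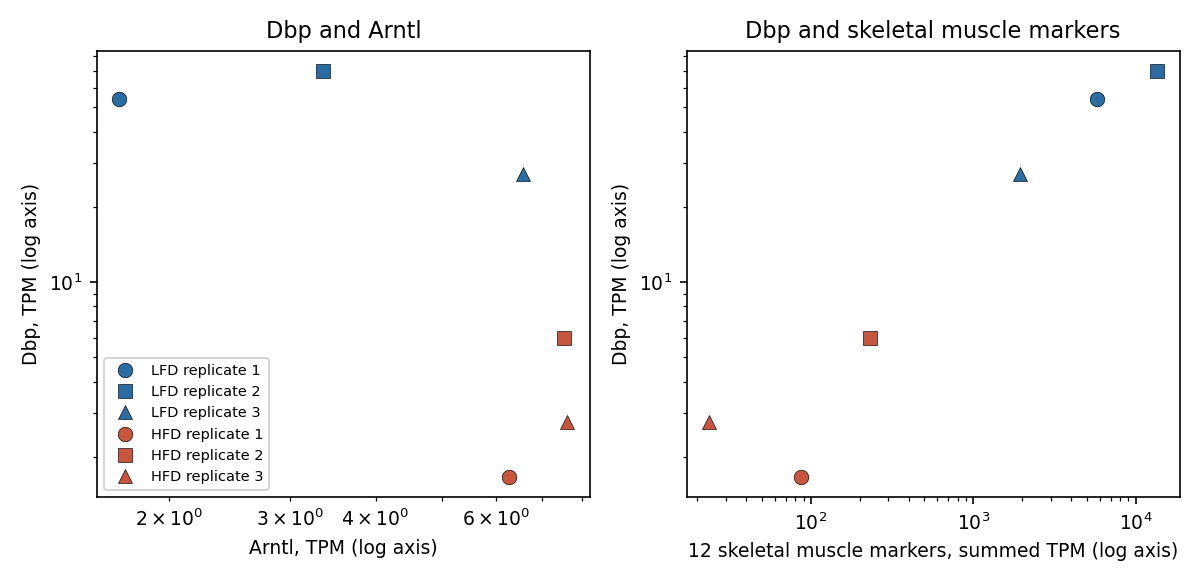
TPM of *Dbp* in each mouse against the TPM of *Arntl* (left) and against the summed TPM of 12 skeletal muscle markers (right), all on log axes, with LFD in blue, HFD in red and the symbol giving the replicate number. The LFD mice have *Dbp* from 27.17 to 69.82 at muscle sums from 1944 to 13587, and the HFD mice *Dbp* from 1.66 to 5.96 at sums from 23.6 to 231.

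Brown adipocyte markers were present in every mouse, none at 0, with a summed TPM of 13200, 10897 and 3626 in LFD and 11730, 13544 and 6232 in HFD, so the sums, to which *Fabp4* contributed most, overlapped between diets. By gene, 9 of the 12 markers had a positive log2 fold change, with a median of 1.35, and 2 (*Ucp1* and *Prdm16*, a brown fat transcription factor) were higher in every HFD mouse in log2 CPM. The 3 negative ones were *Adipoq*, *Plin1* and *Fabp4*, which white adipocytes express as well. None of the 12 was called by edgeR or DESeq2. Of the 12, 2 had an unadjusted edgeR p under 0.05, both higher in HFD: *Prdm16*, and *Dio2*, which overlapped between the diets. The unadjusted edgeR p of *Ucp1* was 0.0515. *Fabp4*, the adipocyte fatty acid binding protein, had 8135.59, 7353.63 and 2623.87 TPM in LFD and 4628, 5014.39 and 3663.8 TPM in HFD. *Ucp1*, the uncoupling protein that defines the brown adipocyte, was low in LFD, at 442.99, 11.03 and 75.98 TPM, against 2728.3, 4020.78 and 796.07 TPM in HFD (log2 fold change 3.67, SE 1.56, edgeR adjusted p = 0.480). The LFD mouse lowest in *Ucp1*, replicate 2, was highest in *Dbp* by TPM, and the LFD mouse highest in *Ucp1*, replicate 1, was highest in *Dbp* by log2 CPM. T and NK cell markers had 7 of 9 tested genes higher in every HFD mouse in log2 CPM, 5 genes of the list called by DESeq2 and 1, *Gzmb*, with the replicate block at an adjusted p under 0.05, at summed TPM of 1.15, 10.5 and 8.22 in LFD and 9.04, 24.9 and 35.1 in HFD, and *Gzmb*, a granzyme of cytotoxic cells, had 0.08, 0.75 and 0.44 TPM in LFD and 1.32, 6.55 and 10.98 TPM in HFD. *Cd4*, the T helper cell receptor, overlapped, at 0.11, 4.19 and 3.08 TPM in LFD and 0.74, 3.5 and 3.21 TPM in HFD. The part of these cell types in the clock output genes was not tested.

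The summed macrophage markers overlapped between the diets (656, 2768 and 4591 TPM in LFD, 1966, 2446 and 3948 in HFD). Of these 10 markers, 2 were higher in every HFD mouse in log2 CPM, *Adgre1* (log2 fold change 1.36, SE 0.55) and *Cd68* (1.72, SE 0.63). The 1 marker lower in every HFD mouse was *Cd163* (-1.53, SE 0.39), and the rest overlapped. None of the 10 was called by edgeR or DESeq2. The sums also overlapped for white adipocytes (1868, 1336 and 218 in LFD, 309, 96 and 42.3 in HFD, with *Hoxc10* at 0 in 5 of the 6 mice) and for endothelium (113, 176 and 225 in LFD, 88.4, 302 and 374 in HFD). By gene, all 4 tested white adipocyte markers had a negative log2 fold change, with a median of -0.86. Of the 5 endothelial markers, 4 had a positive one, with a median of 0.83. The part of these cell types in the clock output genes was not tested. The libraries held between 17157059 and 21603566 assigned counts, and mitochondrially encoded genes took 3.87 to 13.8% of the counts in LFD and 8.5 to 22.7% in HFD.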

How the data were processed

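Total RNA of BAT was depleted of ribosomal RNA (TruSeq with Ribo-Zero Gold) and read as single ends of 75 bases. Per the submitters' processing notes and the study's methods, the authors trimmed adapters with Trimmomatic 0.36 and assigned reads to GRCm38.p4 with RSEM 1.3.0, whose deposited expected counts and TPM per gene, with credibility intervals, were used; the strand setting is not given in the sources used here. The authors' notes also name DESeq2 1.10.1.

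Expected counts were rounded to whole numbers. Genes were kept by the edgeR expression filter (17670 genes), scaled by TMM and tested by the edgeR quasi-likelihood test between 3 HFD and 3 LFD mice (edgeR 4.0.16, R 4.3.3), with Benjamini-Hochberg adjustment over all tested genes. A prior count of 2 was added for log2 CPM. The fit was tested on simulated data. The RSEM intervals cover read assignment and counting error only.

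The 10 genes and all gene lists were chosen with earlier results of these data known. A gene of the opposite-phase list is not reported here, and the counts and median of that list leave it out. Named beyond the 10 genes were all reported opposite-phase genes, *Cry2* and *Bhlhe40*, the 3 genes of largest absolute log2 fold change in each other pathway list, the 5 genes most and least correlated with *Dbp* and with the mean of the 10 genes, the 2 most abundant genes of each marker list, and genes whose exons overlap those of the group. Positions and exon overlaps came from GENCODE on GRCm38, and promoter sequences from RefSeq on GRCm38.p6.

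Mice with the same replicate number deviated together from their diet means (r across genes of 0.498, 0.229 and 0.522 for the 3 pairs, against -0.528 to 0.0532 for the other pairs); the number comes from the sample titles, which do not say what it marks. Alternatives were other size factors, other count filters, removal of mitochondrial genes, DESeq2 1.42.0, log2(TPM + 1), a replicate block, an adjusted p under 0.05 and leaving out each mouse.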

Additional observations from a re-analysis of the deposited data

How the results depend on the processing

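Of the 10 clock output genes, 9 kept a negative log2 fold change in all 16 alternatives run for each. *Dbp* ran from -4.41 to -2.45, *Per3* from -2.13 to -0.95, *Nr1d1* from -2.36 to -0.66, *Nr1d2* from -1.32 to -0.64 and *Per2* from -0.88 to -0.50. *Hlf* was at -1.0 without HFD replicate 1 and became positive without HFD replicate 3 (0.17), LFD replicate 1 (0.06) or LFD replicate 2 (0.01), and with LFD replicates 1 and 2 both left out (1.71), where the median of the 10 genes was -0.60. Leaving out 1 mouse at a time put that median between -1.63 and -1.10 and left 0 genes called, with 8 to 9 of the 10 genes apart between diets. Fewer mice come apart more easily. The share of all genes apart was not computed for these fits, so nothing is read from this count. DESeq2 called 413 genes, 2 of them clock output genes and 3 in the pathway lists (2 lower, *Fkbp5* and *Zbtb16*, and 1 higher, *Lonrf3*), where edgeR called 0; the cause was not tested.

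With the replicate block the median of the 10 genes was -1.28 and edgeR called 0 genes at the thresholds of the study. With the block and an adjusted p under 0.05 alone, added after seeing the data, it called 185 genes, 1 clock output gene (*Dbp*) and 1 pathway gene (*Lonrf3*), together with 10 of 12 skeletal muscle markers, *Gzmb* and *Retn*, where edgeR without the block called 0 at that threshold. The median over all genes was -0.05 with TMM and -0.18 on log2(TPM + 1). With 3 mice per diet, the spread between mice sets the precision, and counting error weighs most on *Ciart*, which had 19 to 35 counts in HFD.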

Other observations

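Against the mean of the 10 clock output genes, each standardised over the 6 mice, the genes of highest Pearson's r were *Arl15* (0.996), *Slc5a6* (0.992), *Serpine2* (0.991), *Slc43a1* (0.988) and *Inmt* (0.987), and those of lowest r were *Card19* (-0.996), *Gusb* (-0.989), *Ttf2*, *Fuca2* and *Gna13* (-0.987 each). Of the 10625 genes ranked, 425 reached 0.9 and 299 reached -0.9, and these values describe 6 mice that share the gap between diets.

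The most abundant marker genes of the remaining cell types overlapped between diets. *Lyz2*, the macrophage lysozyme, had 252.43, 1278.97 and 2754.55 TPM in LFD and 1115.06, 1212.62 and 2263.54 TPM in HFD, and *C1qb*, a complement chain, had 77.15, 316.27 and 413.07 against 205.25, 268.41 and 365.14. *Retn*, which encodes the adipokine resistin, had 1686.01, 1069.09 and 147.26 TPM in LFD and 159.54, 36.75 and 6.18 TPM in HFD. Its log2 fold change was -3.55 (SE 1.56, adjusted p = 0.495 by edgeR and 0.0282 with the replicate block). *Nnat* had 38.81, 189.61 and 59.53 TPM in LFD against 82.99, 50.75 and 32.33 in HFD. The endothelial genes *Pecam1* (45.4, 80.19 and 115.88 TPM in LFD, 36.44, 137.29 and 199.41 in HFD) and *Cdh5* (22.42, 29.93 and 47.88 in LFD, 17.11, 64.89 and 83.16 in HFD) also overlapped.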
